A study of Mus musculus with 6 samples.

Results

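Nuclear genes of the mitochondrial respiratory chain were followed in CD4-enriched thymocytes with and without the transcription factor gene Klf4. The set held every gene whose array symbol starts with Ndufa, Ndufb, Ndufc, Ndufs or Ndufv (complex I), is Sdha, Sdhb, Sdhc or Sdhd (complex II), starts with Uqcr (complex III), with Cox4 to Cox8 (complex IV) or with Atp5 (complex V). This gave 85 of the 16593 genes named on the array, of which 40 fell to complex I, 3 to complex II, 8 to complex III, 18 to complex IV and 16 to complex V. Each gene was read from the probe that was brightest on average over the 6 arrays. Sdha, mitochondrially encoded subunits and the complex III gene Cyc1 (outside the rule) are not among them.

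Each sample was hybridised to 1 Illumina MouseRef-8 v2 bead array, with total RNA of double-positive and CD4 single-positive (DP+SP4) thymocytes. The 3 knockout samples came from Klf4fl/fl-CD4-Cre+ mice and the 3 control samples from Klf4fl/fl-CD4-Cre- mice, so both groups carried floxed Klf4 alleles and Cre was present in the knockouts alone. The mice were of C57/BL6 background and 8 to 10 weeks old. Cre driven by the Cd4 promoter acts in T-lineage cells from about the double-positive stage. CD4 enrichment used either of a pair of commercial kits, with a stated purity above 94%, and the labels do not assign kits to samples. They also do not say whether a sample is 1 mouse or a pool, so the p-values measure the spread between samples.

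The respiratory chain passes electrons from NADH and succinate through complexes I, II, III and IV to oxygen, and complexes I, III and IV pump protons across the inner mitochondrial membrane. ATP synthase, complex V, lets the protons flow back and makes ATP. Many nuclear genes of the chain are known to carry binding sites for the factors NRF1 and GABP in their promoters. KLF4, like other Krüppel-like factors, binds CACCC and GC-rich elements.

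No respiratory chain gene passed the test between knockout and control thymocytes. Of the 85 genes, 78 had a probe bright enough to be tested, and in limma 0 passed an adjusted p of 0.05 as higher and 0 as lower in the knockouts. Over all 15418 probes tested, 0% were called higher and 0.013% lower, the latter being 2 probes of Klf4 itself. At an unadjusted p under 0.05, 1 respiratory chain gene was higher (Ndufa10) and 2 were lower (Ndufb2 and Atp5mpl). The same held for 3.87% of all 10399 genes tested in the higher and 4.98% in the lower direction.

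Promoter sequences are shown first, because the deleted factor acts on promoters. RefSeq windows of the GRCm38.p6 assembly, from 250 bases before to 50 after an annotated start site, were found for 70 of the 85 genes (75 windows). A palindromic NRF1 core was present in 6 of the 75 windows, or 8%, against 0.971% of all 32851 windows in the same table. Each of these sites is printed 5′ to 3′ on the gene's own strand, with the letters of the core, which read the same on both strands, in capitals.
Atp5g2 (complex V, - strand, chr15:102671070-102671099): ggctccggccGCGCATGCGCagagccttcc
Atp5k (complex V, - strand, chr5:108434430-108434459): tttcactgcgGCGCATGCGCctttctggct
Cox6a1 (complex IV, - strand, chr5:115349101-115349130): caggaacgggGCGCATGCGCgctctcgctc
Ndufaf4 (complex I, + strand, chr4:24897960-24897989): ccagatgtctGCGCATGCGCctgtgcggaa
Ndufaf5 (complex I, + strand, chr2:140170652-140170681): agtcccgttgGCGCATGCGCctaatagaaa
Uqcrc1 (complex III, + strand, chr9:108936668-108936697): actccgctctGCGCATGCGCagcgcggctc
Ndufaf4 and Ndufaf5 encode assembly factors of complex I and not subunits, and the probe of Atp5k was too dim to be tested. The core lay farthest upstream in Cox6a1, where it began at position -162 from the start site, and farthest downstream in Uqcrc1, where it began at position 31. The core of the ETS site bound by GABP, CCGGAAG on either strand, was present in 17 windows, or 22.7%, against 8.86% of all windows. A match of letters is a description and not a bound site.

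The CACCC element of the Krüppel-like factors, counted on both strands as CACCC or GGGTG, was present in 40 of the 75 windows, or 53.3%, against 57.5% of all windows. Among genes with a window it was found in 18 of 36 of complex I, 1 of 2 of complex II, 1 of 5 of complex III, 6 of 13 of complex IV and 11 of 14 of complex V. The 35 tested genes with the element had a median difference between genotypes of -0.0101 and the 32 without it one of 0.00519, in z units. The windows of Ndufb2 and Ndufa10, which had the smallest p-values, follow with CACCC elements in capitals.
Ndufb2 (complex I, + strand, chr6:39592315-39592614): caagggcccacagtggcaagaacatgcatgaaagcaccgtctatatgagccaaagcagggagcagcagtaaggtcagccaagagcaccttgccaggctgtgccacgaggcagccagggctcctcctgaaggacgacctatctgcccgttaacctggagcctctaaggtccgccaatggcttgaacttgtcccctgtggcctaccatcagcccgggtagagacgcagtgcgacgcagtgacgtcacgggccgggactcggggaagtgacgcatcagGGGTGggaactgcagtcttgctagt
Ndufa10 (complex I, - strand, chr1:92473709-92474008): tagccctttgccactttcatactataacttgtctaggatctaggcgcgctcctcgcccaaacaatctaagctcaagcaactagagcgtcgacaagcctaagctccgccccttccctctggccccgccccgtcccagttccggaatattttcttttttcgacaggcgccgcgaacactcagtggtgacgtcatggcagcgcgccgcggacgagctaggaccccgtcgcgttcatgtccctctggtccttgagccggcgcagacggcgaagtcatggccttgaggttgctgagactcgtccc
The Ndufb2 window held 1 CACCC element, on the opposite strand at position 26 from the start site, and the Ndufa10 window held 0. GC-rich elements, which KLF4 also binds, were not counted in any window, so their presence in either promoter is left undescribed.

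The authors had scaled each array to a mean of 0 and a standard deviation (SD) of 1 over its 25697 probes, and these scores were then quantile normalised between arrays. A z unit is therefore 1 SD of an array's probes, and differences are not fold changes. Whether intensities or their logarithms were scaled is not known here. Differences are taken between samples for 1 gene at a time, and each difference is knockout mean minus control mean, with limma's 95% interval.

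Loss of Klf4 was seen on probe ILMN_1241903, which read -0.555, -0.758 and -0.696 in knockouts 1 to 3 and 0.0498, 0.109 and -0.145 in controls 1 to 3 (adjusted p = 0.00265). Klf4 probe ILMN_1221264 was also lower (adjusted p = 0.046). The brightest Klf4 probe, ILMN_2999439, showed no loss, with a difference of 0.0367 (adjusted p = 0.944). It read 0.561, 0.678 and 0.309 in knockouts 1 to 3 and 0.606, 0.53 and 0.301 in controls 1 to 3. Why the probes differ was not tested. Pairwise correlations between arrays, across probes, lay between 0.991 and 0.996. Control 3 stood apart in sex-chromosome genes, with Xist probe ILMN_3022688 at 2.12 against -0.558 to -0.404 in the other samples, and Eif2s3y at -0.834 against 1.53 to 1.89. Medians of complexes, and the up to 3 highest and 3 lowest differences of each complex, were also taken without control 3. Values that moved by over 1.5 times are given. For other named respiratory chain genes no such difference is given, and some of these also depended on control 3. Among markers of the labelled cells, the probes of Cd4, Cd8b1, Rag1 and Dntt passed the filter on dim probes and that of Cd8a did not. In bulk RNA, fewer cells of a type and less RNA per cell cannot be told apart.

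**Figure D1:**
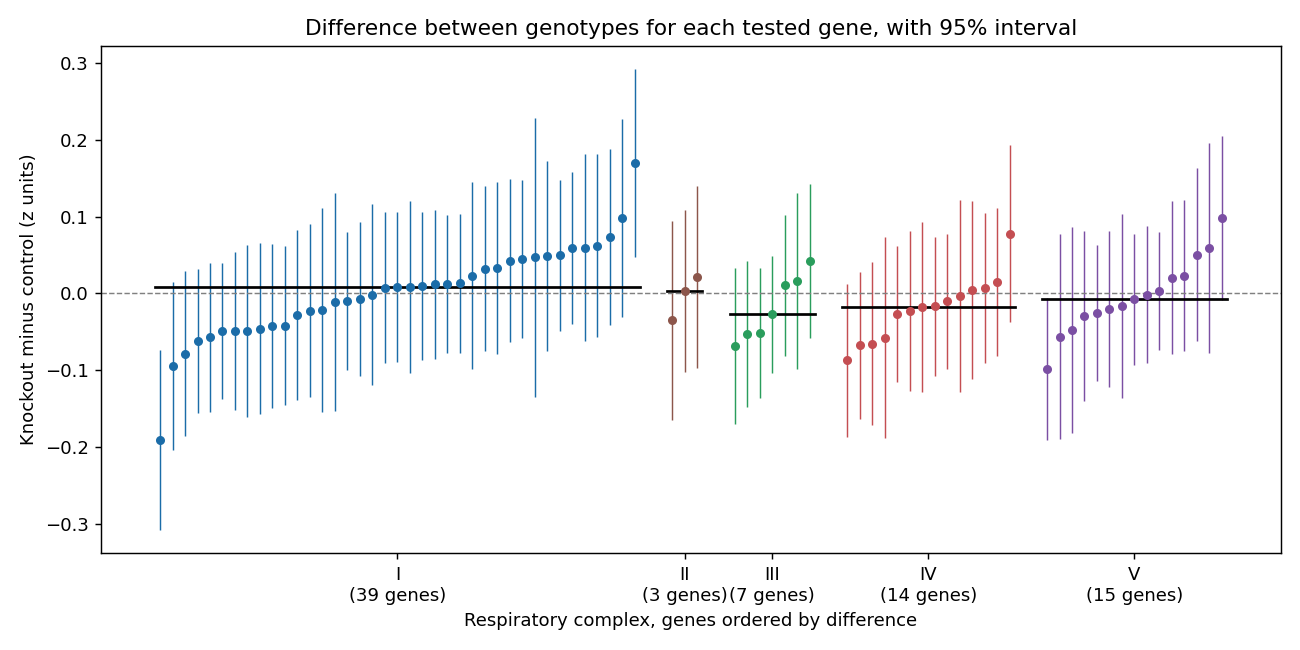
Knockout minus control difference (z units) for each of the 78 tested respiratory chain genes, grouped by complex. Points are limma estimates from 3 samples per genotype, bars are 95% intervals and black lines are the medians of each complex, which lie between -0.0271 and 0.00794.

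By complex, the median differences lay close to that of all genes tested, -0.00253. They were 0.00794 over 39 genes of complex I, 0.00308 over 3 of complex II, -0.0271 over 7 of complex III, -0.0171 over 14 of complex IV and -0.00777 over 15 of complex V. Over all 78 genes the median was -0.00488, with 36 differences above 0 and 42 below, where 48.1% of all genes were above and 51.9% below. The side of 0 depended on the scaling. With the scores as deposited, 45 differences were above 0 and 33 below, where 45.7% of all genes were above and 54.3% below. The medians of complexes I to V were then 0.0289, -0.0078, 0.0155, 0.00344 and 0.0253. It also depended on control 3. Without it, 24 differences were above 0 and 54 below, where 47.6% of all genes were above and 52.4% below, and the medians of complexes I to V were -0.0083, -0.0179, -0.033, -0.0194 and -0.0399. Both sets of counts were added after the values were seen.

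The intervals bound what each difference could have been. Their median half-width was 0.106 for the respiratory chain genes and 0.113 for all genes tested. The whole interval lay within 0.2 z units either side of 0 for 72 of the 78 genes, or 92.3%, against 76.9% of all genes, and within 0.3 for 77. Ndufb2 was the exception, reaching -0.308. Most of the 78 genes had bright probes, and these widths and shares were not taken among genes of like brightness. The difference between genotypes was smaller in size than the range of the 3 controls in 70 of the 78 genes (89.7%), against 80.4% of all genes. That range often rested on controls 3 and 2. Control 3 was the lowest of the 6 samples in 47.4% of the 78 genes, against 19% of all genes. Control 2 was the highest in 39.7%, against 16.5%. The share therefore does not by itself show that differences were small.

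Complex I takes electrons from NADH. Its 40 genes comprise 6 of the catalytic core, 27 of accessory subunits, 5 assembly factors, the pseudogene Ndufs5-ps and Ndufa4, a protein now placed with complex IV, which differed by -0.049. Among the 5 tested core genes the median difference was -0.00174. The range ran from -0.0621 for Ndufv2 to 0.0621 for Ndufv1, both subunits of the NADH-oxidising tip. The Ndufv1 value rested on control 3, with controls 1 to 3 at 2.64, 2.61 and 2.44 and a knockout mean of 2.62. For the 27 accessory genes, 17 lay above 0 and 10 below, and the median was 0.0119. The extremes in both directions were accessory genes.

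Ndufa10, which encodes a membrane-arm subunit related to nucleoside kinases, read 2.28, 2.39 and 2.3 in knockouts 1 to 3 and 2.22, 2.21 and 2.04 in controls 1 to 3. Every knockout value lay above every control value, and control 3 was the lowest. The difference was 0.17 (SE 0.0568, 95% interval 0.0474 to 0.292, adjusted p = 0.439). Without control 3 it was 0.112, a drop of over 1.5 times.

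Ndufb2, a small accessory subunit, read 0.211, 0.201 and 0.217 in knockouts 1 to 3 and 0.453, 0.422 and 0.327 in controls 1 to 3. The knockout values were close together and all lay below the controls, of which control 3 was the lowest. Knockouts averaged 0.209 ± 0.00834 and controls 0.401 ± 0.0656 (SD, n = 3), which is a difference of -0.191 (SE 0.0543, 95% interval -0.308 to -0.0738). Its adjusted p, 0.382, was the smallest of the 78 genes, and it did not pass. Leaving out 1 sample at a time gave differences from -0.228 to -0.165.

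The other complex I genes lay nearer 0. Ndufb11, an X-linked subunit, differed by 0.0978 and its second probe by -0.016, so its probes did not share a sign, and without control 1 the difference was 0.0548. Ndufv3 differed by 0.0739, by 0.0104 without control 3 and by 0.113 without control 2. On the lower side, the assembly factor gene Ndufaf1 differed by -0.095 and Ndufb5 by -0.0784, and in both the groups did not overlap. Ndufs5-ps differed by 0.0597, a value that is uncertain because its probe may also detect the parent gene. Ndufb10 had the widest spread within a genotype of the tested respiratory chain genes, with controls 1 to 3 at 0.685, 0.83 and 0.433 (SD 0.201) and an SD of 0.0709 in the knockouts.

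Complex II, succinate dehydrogenase, also serves the tricarboxylic acid cycle. Sdhb, its iron-sulphur subunit, read 1.67, 1.63 and 1.64 in knockouts 1 to 3 and 1.71, 1.63 and 1.61 in controls 1 to 3, a difference of 0.00308 (95% interval -0.103 to 0.109). The groups overlapped, and the 3 probes of this gene gave differences from 0.00149 to 0.0455. Sdhc, a membrane anchor, read 1.89, 1.98 and 1.92 in the knockouts and 1.89, 2.01 and 1.83 in the controls, a difference of 0.0218 (95% interval -0.0969 to 0.141). Here the controls spanned the knockouts. The other anchor gene, Sdhd, read 0.735, 0.834 and 0.743 in the knockouts and 0.879, 0.833 and 0.704 in the controls, a difference of -0.0352 (95% interval -0.164 to 0.0938). Control 3 had the lowest value of the 6 in all 3 genes, and without it the differences were -0.0168, -0.0179 and -0.0858.

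Complex III passes electrons from ubiquinol to cytochrome c. Uqcrfs1, the Rieske iron-sulphur protein, read -0.612, -0.605 and -0.497 in the knockouts and -0.535, -0.639 and -0.666 in the controls, a difference of 0.0421 (95% interval -0.0579 to 0.142). This was the highest difference of the complex, but the groups overlapped, and it was 0.00491 without knockout 3, 0.0813 without control 1 and 0.0156 without control 3. At the other end, Uqcrb, a subunit near the ubiquinone site, read 2.11, 2.15 and 2.23 in the knockouts and 2.24, 2.22 and 2.24 in the controls, a difference of -0.0683 (95% interval -0.17 to 0.0333). The control values were close together and knockout 3 lay among them, and without knockout 1 the difference was -0.0409. The pair known as core proteins did not share a sign, with Uqcrc1 at 0.0104 (0.00656 without control 3) and Uqcrc2 at -0.0514. Uqcr10 differed by -0.0527, Uqcr11 by 0.0163 and the hinge protein gene Uqcrh by -0.0271. In Uqcrc2 and Uqcrh the knockouts lay below the controls without overlap. With the scores as deposited the groups overlapped in both genes, and Uqcrc2 differed by -0.014. Without control 3, Uqcr10 differed by -0.089 and Uqcr11 by -0.033.

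**Figure D2:**
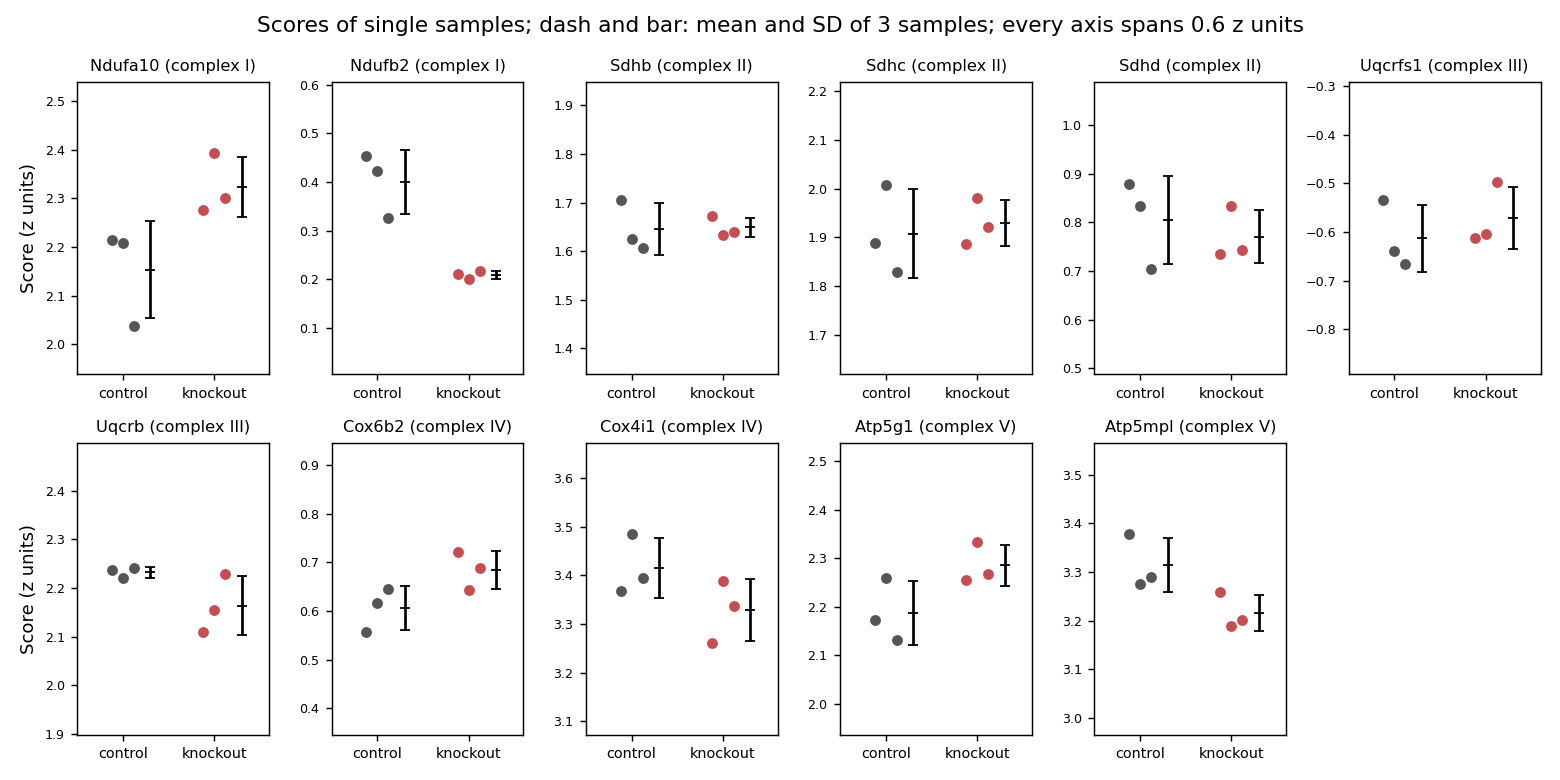
Scores (z units, y axis) of single samples of each genotype for the genes with unadjusted p under 0.05, the highest and lowest difference of each complex, and the 3 genes of complex II. Dashes and bars are the mean and SD of 3 samples, and every panel spans the same height, so the separation in Ndufb2 can be set against the overlap in Sdhb, Sdhc and Sdhd.

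Complex IV, cytochrome c oxidase, reduces oxygen, and several of its subunits exist as alternative genes with different tissue distributions. Cox4i1, the widely expressed form of subunit IV, read 3.26, 3.39 and 3.34 in the knockouts and 3.37, 3.48 and 3.39 in the controls, a difference of -0.0868 (95% interval -0.186 to 0.0129). The ranges overlapped, with knockout 2 above control 1. With the scores as deposited the difference was -0.0192 (adjusted p = 0.968), without knockout 1 it was -0.0529 and without control 2 it was -0.0523. Cox7c differed by -0.0676, without overlap of the groups. It differed by -0.0377 with the scores as deposited, where the groups overlapped, and by -0.0332 without control 2. The X-linked Cox7b differed by -0.0653, by -0.0382 without control 1 and by -0.105 without control 3. Cox5b differed by 0.0151 and Cox6a1 by 0.00731, and without control 3 both were below 0, at -0.011 and -0.0145. With the scores as deposited they were 0.0638 and 0.0729.

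Cox6b2, a form of subunit VIb best known from testis, had the highest difference of the complex. It read 0.72, 0.643 and 0.689 in the knockouts and 0.557, 0.617 and 0.645 in the controls, a difference of 0.0776 (95% interval -0.0376 to 0.193). Control 3 lay just above knockout 2. Its widely expressed partner Cox6b1 differed by -0.0177, and by -0.101 on a second probe.

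Most tissue-restricted forms were dim. Of 7 such genes, 3 were tested: Cox6b2 and the heart and skeletal muscle forms Cox6a2 and Cox7a1, which differed by 0.00475 and -0.00291. Their partners Cox6a1 and Cox7a2 differed by 0.00731 and -0.0574, and the supercomplex factor Cox7a2l by -0.027. Cox4i2, Cox7b2, Cox8b and Cox8c had dim probes, as did Ndufs1, Uqcrq and Atp5k in the other complexes, while Cox8a differed by -0.0101. Of 10 markers of muscle and brown fat, 8 were also dim, Ckm and Ucp1 among them.

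Cox8c, a testis form of subunit VIII, read -0.681, -0.757 and -0.563 in the knockouts and -0.786, -0.87 and -0.789 in the controls. The groups did not overlap, and in a limma fit on all probes the difference was 0.148 (95% interval 0.0493 to 0.247, adjusted p = 0.5). The other 6 dim genes differed by -0.0366 to 0.0351 in that fit.

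Complex V, ATP synthase, had both extremes in its membrane part. Atp5g1, 1 of 3 genes for the c subunit of the proton-driven ring, read 2.26, 2.33 and 2.27 in the knockouts and 2.17, 2.26 and 2.13 in the controls. The difference was 0.0982 (95% interval -0.0083 to 0.205, adjusted p = 0.596), and control 2 lay just above knockout 1. The other c subunit genes, Atp5g2 and Atp5g3, which encode the same mature protein, differed by 0.0502 and 0.00271. For Atp5g2, leaving out 1 sample gave 0.0124 to 0.0804, the lowest without control 3.

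Atp5mpl, a small proteolipid of the same membrane part, read 3.26, 3.19 and 3.2 in knockouts 1 to 3 and 3.38, 3.28 and 3.29 in controls 1 to 3. All knockout values lay below the controls, with control 1 the highest. The difference was -0.0983 (SE 0.0428, 95% interval -0.191 to -0.00596, adjusted p = 0.535). With the scores as deposited it was -0.0408 (adjusted p = 0.91), and the groups overlapped.

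The other tested small membrane genes, Atp5l and Atp5j2, differed by -0.0478 and -0.00777. For Atp5l the value was -0.125 without control 3 and -0.001 without control 2. In the F1 head and central stalk, where ATP is made, the 5 differences ran from -0.0564 for Atp5e to 0.0229 for Atp5c1, with the catalytic subunit gene Atp5b at -0.00142. In the peripheral stalk, Atp5o differed by 0.0586 and Atp5pb, Atp5j and Atp5h by -0.0291, -0.0256 and -0.0165. Without control 3, Atp5e differed by -0.105 and Atp5o by -0.00241, and without control 2 by 0.00368 and 0.121. In the fit on all samples, the F1 part and the peripheral stalk each held differences on both sides of 0.

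**Figure D3:**
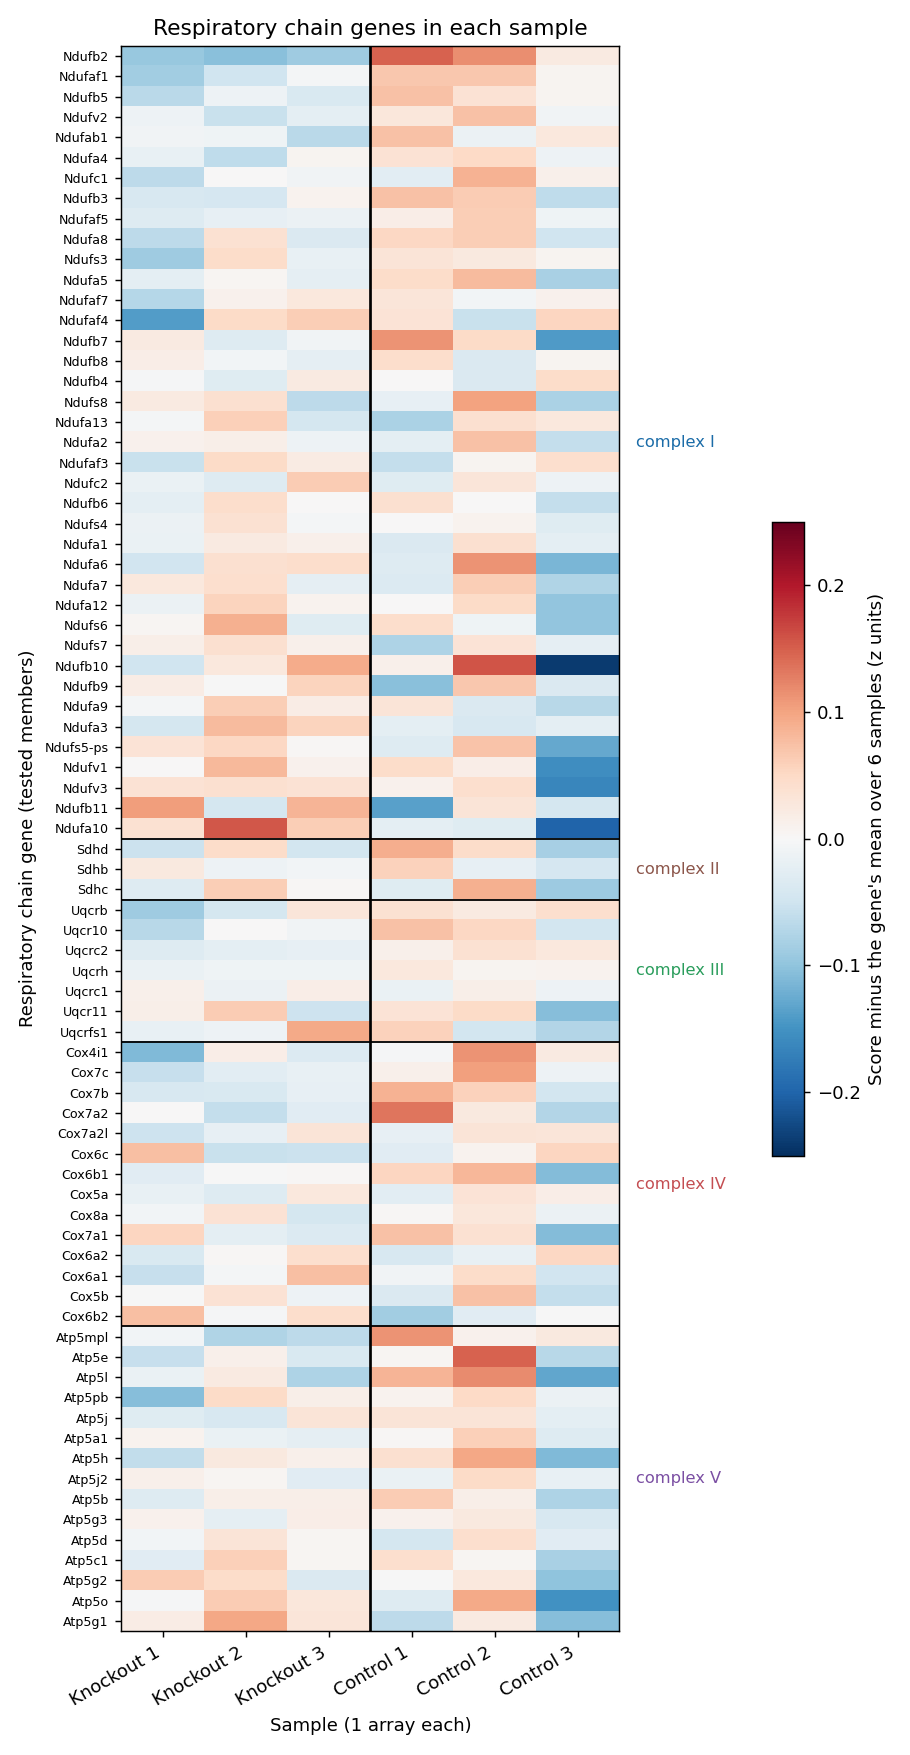
Score of each sample minus the gene's mean over the 6 samples (z units, colour) for the 78 tested respiratory chain genes (rows, by complex) in each sample (columns). The deviation largest in size is that of Ndufb10 in control 3.

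Samples of the same genotype took up the extreme places in this set of genes. Control 3 had the lowest score of the 6 samples in 37 of the 78 genes, or 47.4%, against 19% of all genes tested. Control 2 had the highest in 31 genes, or 39.7%, against 16.5%. The median deviation from a gene's mean was -0.0381 in control 3 and 0.0398 in control 2, with control 1 at 0.0118 and knockouts 1 to 3 at -0.0163, 0.00808 and 0.00136. The 3 knockouts lay between controls 2 and 3. By complex, control 3 was lowest in 17 of 39 genes of complex I, 3 of 3 of II, 2 of 7 of III, 5 of 14 of IV and 10 of 15 of V. In complex III knockout 1 was the lowest in 4.

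Most of these genes had bright probes, so the shares were also taken among genes with a mean score of at least 1.14, a comparison chosen after the values were seen. Control 3 was then the lowest in 28 of 58 respiratory chain genes (48.3%) and in 23.7% of all 3020 genes, and control 2 the highest in 44.8% and 16.1%. With the scores as deposited, control 3 was the lowest in 55 of the 78 genes (70.5%) and in 17.6% of all genes. It was then the highest in 6.41% of the 78 and in 25.1% of all genes. These shares cover genes of any brightness, and none were taken among bright genes with the deposited scores. The deposited array of control 3 also had the lowest maximum, 4.52 against 4.77 to 5.02. The part of the sex-chromosome genes and of the scaling in these places was not tested.

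**Figure D4:**
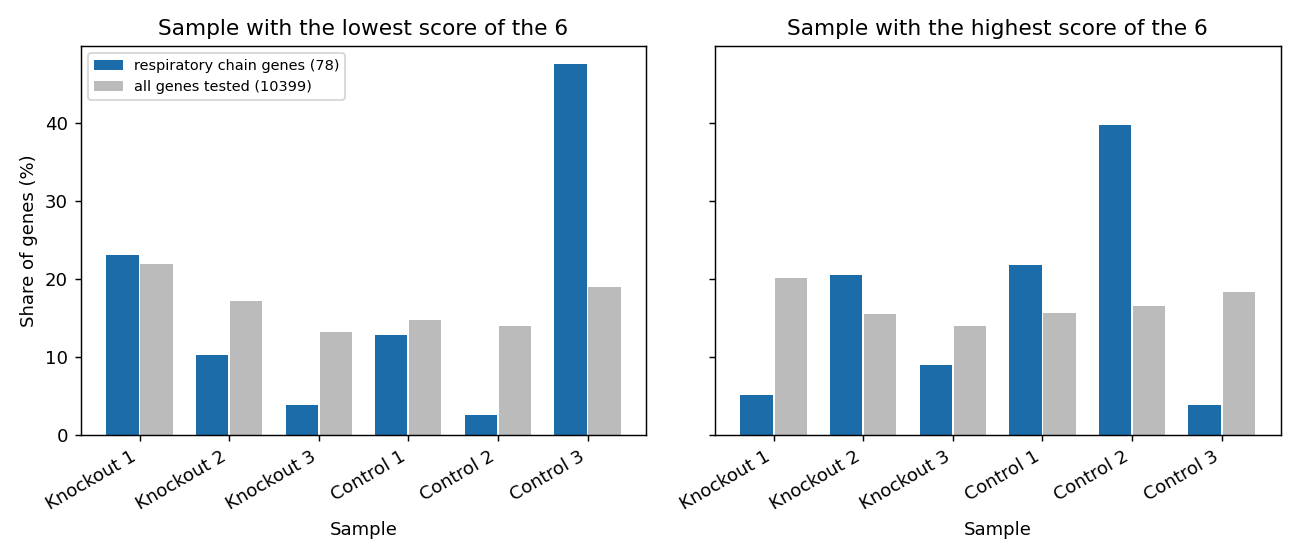
Share of genes (%, y axis) in which each sample (x axis) had the lowest (left) or highest (right) score of the 6, for the respiratory chain genes (blue) and all genes tested (grey). Control 3 was the lowest in 47.4% and control 2 the highest in 39.7% of the respiratory chain genes.

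The knockouts lay wholly below the controls in 9 of the 78 genes, where this held for 7.78% of all genes tested, and wholly above in 1, where it held for 6.39%. The genes below were Ndufaf1, Ndufaf5, Ndufb2, Ndufb5, Ndufv2, Uqcrc2, Uqcrh, Cox7c and Atp5mpl, and the gene above was Ndufa10. With the scores as deposited the counts were 4 below and 1 above, against 8.49% and 5.43% of all genes, a count added after the values were seen. Those below were then all genes of complex I, so the groups overlapped in Uqcrc2, Uqcrh, Cox7c and Atp5mpl. Of 14 genes with more than 1 tested probe, 4 had probes of differing sign, and the gap within a gene was at most 0.114 z units.

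Genes that build or feed the chain were read from lists by function, and 0 of them passed, with 4 of 90 tested (4.44%) at an unadjusted p under 0.05, against 8.85% of all genes. For complex I assembly factors, 13 of 14 on the array were tested, of which 5 lay above 0 and 8 below (median -0.0222). Among these, Ndufaf1, Ndufaf3, Ndufaf4, Ndufaf5 and Ndufaf7 also belong to the respiratory chain genes above, so they are counted in both sets. Dmac1 differed by -0.13 (adjusted p = 0.466) and Tmem126b by -0.112, while Dmac2 and Acad9 stood at 0.0543 and 0.0488. For assembly factors of complexes II to V, 28 of 30 were tested, 13 above 0 and 15 below (median -0.0012, or -0.0364 without control 3). Cox18, which helps insert a mitochondrially encoded subunit of complex IV into the membrane, differed by 0.205 (SE 0.0547, adjusted p = 0.349) and Coa7 by 0.156, while Taco1 and Coa4 stood at -0.0828 and -0.0992.

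The 17 electron carriers and feeding enzymes lay above 0 in 14 cases and below in 3 (median 0.0359), with 0 at an unadjusted p under 0.05, where 48.1% of all genes lay above 0. The counts were 10 above and 7 below with the scores as deposited, and 13 and 4 without control 3. Cytochrome c, Cycs, differed by 0.0877 and the ubiquinone synthesis gene Coq9 by 0.115, while Cyc1 and Dhodh stood at -0.0501 and -0.0999. The 12 tested genes of the tricarboxylic acid cycle, 5 above 0 and 7 below, had a median of -0.0176, or -0.0384 without control 3, with Idh2 at -0.102, Fh1 at -0.0744, Dlst at 0.0212 and Idh3a at 0.0173.

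The 14 tested regulators of mitochondrial biogenesis, 4 above 0 and 10 below, had a median of -0.0252. The mitochondrial DNA polymerase gene Polg differed by -0.132 (adjusted p = 0.472) and Mterf1a by -0.0927, while Ppargc1b and Twnk stood at 0.0705 and 0.0282. Nrf1, whose sites are printed above, differed by -0.01, and Tfam, the packaging factor of mitochondrial DNA, by 0.0252. Of 6 genes for nucleotide and phosphate exchange, outer membrane pores and the ATP synthase inhibitor (median -0.0353), Vdac3 and Slc25a5 stood at -0.109 and -0.0598, and Slc25a3 and Atpif1 at 0.0576 and 0.0256.

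Markers of the labelled stages and of other cells did not pass either. The stage markers with an unadjusted p under 0.05 were Dntt at -0.137 (adjusted p = 0.415) and Cd28 at 0.158 (adjusted p = 0.397), with medians of -0.00839 over 7 double-positive and 0.0347 over 6 CD4 single-positive markers. Without control 3 the double-positive median was 0.0286. The 5 tested of 7 myeloid and dendritic markers all lay below 0 (median -0.0975), but without control 3 2 lay above and 3 below (median -0.0171), and Itgam and Itgax were dim. Over all 7 markers, dim ones included, the median score per sample was -0.448 to -0.185 among knockouts and -0.309 to -0.192 among controls. The B cell, cytotoxic, erythroid and stromal lists had 4, 4, 2 and 4 tested genes and medians of -0.0204, 0.0158, -0.0959 and 0.0209, and without control 3 medians of 0.0211, 0.0052, -0.0859 and 0.0134. Their part in the respiratory chain values was not tested.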

How the data were processed

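The deposited values are scores. Each column of the authors' table averages 0 with unit SD over 25697 probes, as its values show, and 0 columns belong to other samples. The submitters' processing notes name GenomeStudio 2010.1 without a role, and earlier steps are not given here. Gene symbols were taken from the platform annotation (23978 probes with 1 symbol, 1719 without).

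Array quartiles differed by up to 6.93% of the interquartile range, and scores were quantile normalised. Probes whose mean fell below the 40th percentile were dropped, leaving 15418. Genotypes were compared with limma 3.58.1 (R 4.3.3, lmFit, eBayes with a trend, two-sided). Benjamini-Hochberg adjustment covered all tested probes, with a threshold of 0.05. The procedure was tested on simulated data, with planted differences larger than any found in the respiratory chain genes. Having 3 arrays per genotype limits precision.

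The respiratory chain genes, the other lists and the rules were chosen with earlier results of these data known. Genes are named as, per complex, up to 3 with the highest and 3 with the lowest difference, those with an unadjusted p under 0.05, dim genes, Sdh genes and paralogous subunits, and up to 2 per direction by p from other lists. Ndufb10, core, F1 and stalk genes, genes without overlap, Nrf1, Tfam and single markers were named after their values were seen. Alternatives were the scaling, dim filter, variance model, array weights, replicate block, probe rule, membership and leaving out each sample.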

Additional observations from a re-analysis of the deposited data

How the results depend on the processing

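In the 15 alternatives run, including each fit without 1 sample, 0 respiratory chain genes were called by limma, with 2 to 5 at an unadjusted p under 0.05 and smallest adjusted p-values from 0.212 to 0.754. Probes called over the whole array numbered 2, against 0 with the stricter dim filter, which tests fewer probes, 1 without a variance trend, and 1 to 4 without 1 sample, for which the cause was not tested. With the replicate number as a block, 4 probes and 0 respiratory chain genes were called. Correlations, across probes, of same-numbered samples' deviations from their group means were -0.0338, 0.167 and 0.0346. Those of other pairs ran from -0.172 to 0.11. The labels do not say what the number marks, and 3 correlations cannot show whether same-numbered samples share anything else.

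Medians of complexes II to V changed sign with the scores as deposited and with median centring, that of complex III from -0.0271 to 0.0175 with the latter. In the alternatives run, the medians of the complexes moved by less than the within-genotype SD of the samples' own medians. Without 1 sample they ranged from -0.0083 to 0.0204 for complex I, -0.0179 to 0.0121 for II, -0.033 to -0.0206 for III, -0.0258 to -0.00344 for IV and -0.0399 to 0.0141 for V, and all respiratory chain genes had a median of -0.0196 without control 3.

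Among the up to 3 highest and 3 lowest differences of each complex, Sdhb changed sign with the deposited scores (-0.0078), median centring (-0.00578) and array weights (-0.0132). Uqcr10 did so with the deposited scores (0.0082) and median centring (0.0102). Without 1 sample, signs turned within -0.105 to 0.00368 for Atp5e, -0.00241 to 0.121 for Atp5o, -0.011 to 0.0559 for Cox5b, -0.0281 to 0.0384 for Cox6a1, -0.0168 to 0.0329 for Sdhb, -0.0179 to 0.0713 for Sdhc, -0.0858 to 0.00154 for Sdhd and -0.033 to 0.0464 for Uqcr11. Other named genes were left out of these lists, and some of them also change sign without 1 sample. The cause was not tested. Dim probes and 3 samples per genotype limit what could be seen.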
